A study of Mus musculus with 29 samples.

Results

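Short-term haematopoietic stem cells (ST-HSC) were compared with long-term haematopoietic stem cells (LT-HSC), both sorted from the bone marrow of control mice. The comparison took the 3 libraries whose names mark control ST-HSC and the 4 that mark control LT-HSC, 7 of the 29 RNA-seq libraries of the series, and covered all 38924 gene identifiers of the count table. The mice were C57BL/6, were young, and were studied 6 weeks after pIpC. This synthetic double-stranded RNA is commonly injected to turn on the Mx1-Cre recombinase. By the design text pIpC applied to every group, so control cells had seen it too. The alleles of the control mice, the Cre line and the number of animals behind each library were not given in the sources used here. A second set of 4 ST-HSC and 3 LT-HSC libraries came from Dnmt3a-mutant mice of the same strain, age class and pIpC interval, with the mutant allele not given. Titles of mutant ST-HSC libraries name Dnmt3a alone, and their genotype was also read from the description. Control MPP3 (3 libraries) and MPP4 (4 libraries), which are multipotent progenitors, shared the estimate of the spread. No label ties replicates to different animals. P-values therefore cover the scatter among these libraries alone, and that scatter may be technical. In the descriptions, 3 numbers are each shared by a control ST-HSC and a control LT-HSC library. Their meaning was not given, and the main fit did not use them as pairs.

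LT-HSC are the rare cells that sustain blood formation for life after transplantation, and they are known for quiescence and for a subset that is primed towards megakaryocytes, the source of platelets. ST-HSC lie just below them, reconstitute blood for a limited time and give rise to the multipotent progenitors. In a widely used scheme, LT-HSC carry the SLAM receptor encoded by Slamf1, ST-HSC lack it, MPP3 gain Cd48 and MPP4 gain Flt3. The gates of this sort were not given in the sources used here, and a surface gene that a gate used is a check of the label and not a finding.

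The ST-HSC libraries held 6133994 to 8634517 counts and 15920 to 17536 genes with a count, and the LT-HSC libraries held 6438821 to 8234571 counts and 16965 to 17905 genes. Levels are given in CPM, that is counts relative to library size after TMM scaling. A gene with 0 counts could be present at up to 0.347 to 0.489 CPM, from a floor of 3 counts, which covers counting error only. Distances within a population overlapped those between populations. The root mean square log2 distance was 1.2 to 1.43 between ST-HSC libraries, 0.92 to 1.49 between LT-HSC libraries and 1.06 to 1.6 between one of each. LT-HSC replicates 1, 2 and 3 stood apart from replicate 4 in RNA of maturing blood cells. The list of neutrophil markers summed to 377, 149.6 and 445 CPM in ST-HSC and 12610, 4476, 1943 and 125 CPM in LT-HSC. The list of erythroblast markers summed to 1674, 548 and 1508 CPM in ST-HSC and 28700, 5574, 8749 and 439 CPM in LT-HSC. The names of the table's columns carry 1 of 2 prefixes of unstated meaning, 1 shared by ST-HSC replicates 1 and 2 and LT-HSC replicates 1 and 2, the other by ST-HSC replicate 3 and LT-HSC replicates 3 and 4.

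Of 14937 genes tested with edgeR's quasi-likelihood test, 13 were higher and 13 lower in ST-HSC at an adjusted p under 0.05, which is 0.174% of the genes tested and 0.087% in each direction. A further requirement that no ST-HSC library overlaps any LT-HSC library was met by all 26, and by 3.73% of all genes in the higher direction and 3.86% in the lower. At an unadjusted p under 0.05 there were 1514 genes (10.1%). The number of calls depended on how the spread was moderated, a setting chosen after its results were seen. Without robust moderation 15 genes passed, of which 14 are among the 26. With the bias-adjusted form of the test 131 passed, all 26 among them. With both changes, which are the defaults of this edgeR version, 155 passed, again with all 26 among them. Below, passing or missing the threshold refers to the main fit alone. Of the 54 tested genes described below that did not pass in it, 26 passed with those defaults and 32 with DESeq2. The 13 higher genes were the receptor genes S1pr3, Il1r1, Flt3, Vldlr and Ramp1, the stem-cell sialomucin Cd34, the Ikaros-family factor Ikzf2, and Abcc9, Gimap6, Scube3, Dab2, Hspg2 and Cdh5. The lower genes included the platelet and megakaryocyte genes Pf4, Cavin2, Vwf, Itga2b and Mfsd2b, the proliferation genes Mki67, Aspm and Iqgap3, and Sfxn5, Degs1, Vcl and Gen1. Because none of the 26 overlapped, each also had its direction within both column prefixes.

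**Figure D1:**
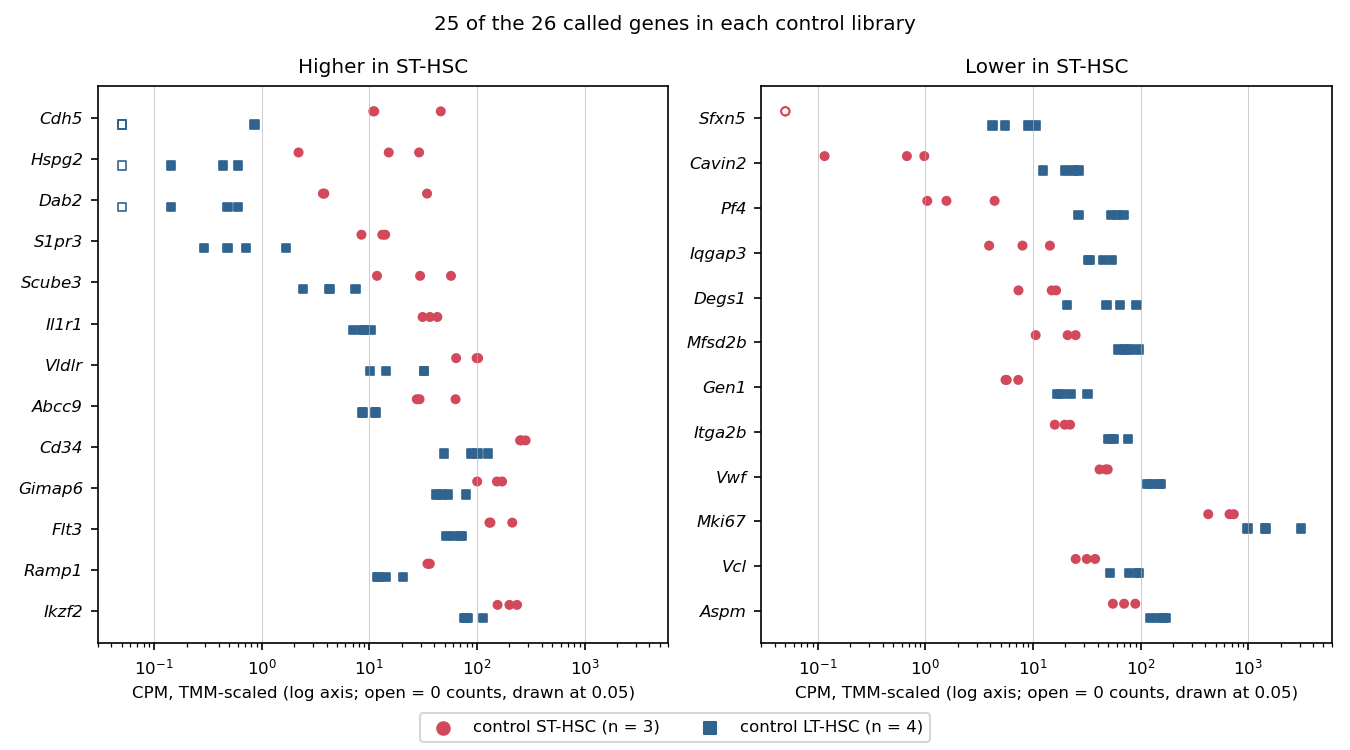
Levels of 25 of the 26 genes past an adjusted p of 0.05, in TMM-scaled CPM on a log axis, with 1 point for each control library (ST-HSC red circles, n = 3, drawn above LT-HSC blue squares, n = 4). Open symbols are libraries with 0 counts, drawn at 0.05 CPM. In every row the red and blue points are separate, by a wide gap for Cdh5, Dab2 and S1pr3 on the left and for Sfxn5, Cavin2 and Pf4 on the right.

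The number of calls rested on single libraries. It was 9 higher and 8 lower without LT-HSC replicate 1, 4 and 4 without replicate 2, 1 and 0 without replicate 3, and 40 and 177 without replicate 4. Without ST-HSC replicates 1, 2 and 3 it was 19 and 28, 7 and 4, and 3 and 2. S1pr3 was the gene that passed in all 7 of these fits. Leaving out LT-HSC replicates 1, 2 and 3 together was a choice made after seeing the data. It leaves 1 LT-HSC library, assumed to vary like the other groups, so its calls are not counted here. The 25 called genes reported here kept their direction in all these fits. Because none of the 26 overlapped, leaving out libraries could hardly turn a sign, so the kept directions are a description and no test. Within the prefix that holds 2 libraries of each population, 9 genes were higher and 135 lower, 13 of them among the 26. The other prefix holds 1 ST-HSC library.

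**Figure D2:**
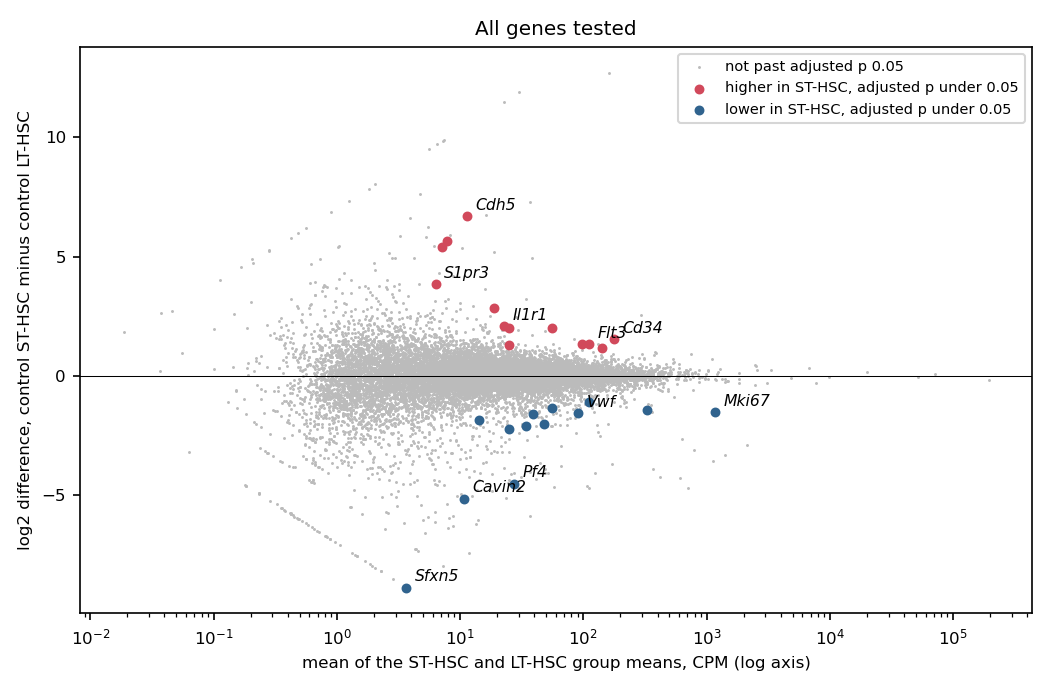
The log2 difference, control ST-HSC minus control LT-HSC (vertical), against the mean of the group means in CPM on a log axis (horizontal), for the 14937 genes tested. The 13 genes higher in ST-HSC are red and the 13 lower are blue, while grey points did not pass, many of them with larger differences at low levels. Sfxn5 lies on the line of genes with 0 counts in ST-HSC, where the fitted difference is no bound.

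The surface genes were read first, as a check of the labels. Slamf1 was at 0.785, 2.2 and 1.63 CPM in the 3 ST-HSC libraries and at 14.2, 23.9, 29.8 and 30.5 CPM in the 4 LT-HSC libraries. The groups were far apart, and the log2 difference of -3.99 ± 0.816 (SE) missed the threshold (adjusted p = 0.0577). Cd34, whose protein is absent from the mouse cells with the longest repopulating activity, was at 252, 257 and 283 CPM in ST-HSC and 49.2, 88.1, 101 and 126 CPM in LT-HSC. Every ST-HSC library held more than 126 CPM, the highest LT-HSC value, and Cd34 was 2.89-fold higher in ST-HSC (adjusted p = 0.0182). Flt3, the receptor for FLT3 ligand, was at 133, 130.5 and 213 CPM in ST-HSC against 71.7, 71.1, 51.8 and 58.6 CPM in LT-HSC, a log2 difference of 1.33 ± 0.206 SE (adjusted p = 0.00864). Both populations lay below MPP4, where Flt3 averaged 434 ± 34.2 CPM (SD, n = 4).

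The other 11 genes of the 14-gene sort list included 1 more that passed, the integrin gene Itga2b described below. Kit, the stem cell factor receptor, averaged 658 ± 30.8 CPM in ST-HSC and 437 ± 131 CPM in LT-HSC (mean ± SD, n = 3 and 4, as for the means of these populations below), with no overlap between libraries (adjusted p = 0.289). Cd27, a TNF-family receptor, averaged 180 ± 29.6 against 105 ± 21.5 CPM (adjusted p = 0.394). Cd48, which marks cells past the stem-cell stage, was at 17.9, 9.26 and 10.9 CPM in ST-HSC and 24.8, 14.9, 10.7 and 1.16 CPM in LT-HSC. LT-HSC replicate 4 was the lowest of the 7 and LT-HSC replicate 1 the highest (adjusted p = 0.997). Ly6a, Procr, Tek and Esam, surface genes of stem cells, also overlapped, with adjusted p values of 0.852, 0.896, 0.875 and 0.95. Il7r and Fcgr3, which mark lymphoid and myeloid progenitors, were uneven within groups: Il7r had 38.2 CPM in ST-HSC replicate 1 and at most 0.116 CPM in the other ST-HSC libraries, against 22.6, 7.44, 4.33 and 0 CPM in LT-HSC. Fcgr3 was at 2.02, 0.116 and 4.56 CPM in ST-HSC against 47.4, 22.2, 8.89 and 0.579 CPM in LT-HSC.

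S1pr3 had the smallest p of all genes tested. It encodes a receptor for sphingosine 1-phosphate (S1P), a lipid that guides blood cells between marrow and blood. The gene (ENSMUSG00000067586, GRCm38 chromosome 13, 51408639 to 51422797) was at 14, 8.45 and 13.2 CPM in ST-HSC and at 0.715, 1.68, 0.48 and 0.289 CPM in LT-HSC. Every ST-HSC library lay well above the highest LT-HSC library, and the log2 difference was 3.86 ± 0.511 SE (adjusted p = 0.00452). The level in the progenitors was 18.2 ± 2.2 CPM in MPP3 (n = 3) and 11.5 ± 3.07 CPM in MPP4 (n = 4). S1pr1, the receptor that lymphocytes use to leave tissues, averaged 27.8 ± 11.3 CPM in ST-HSC and 17 ± 5.05 CPM in LT-HSC. The other 4 receptor genes, S1pr1 among them, gave 0 calls, with log2 differences of -0.14 to 0.71 and adjusted p values of 0.598 to 0.967. Only 0.174% of all genes tested were called. For this and the families below, 0 calls among so few genes therefore does not set the called gene apart.

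The genes that make and export S1P included a second call in the other direction. Mfsd2b, the S1P exporter of red cells and platelets (ENSMUSG00000037336, GRCm38 chromosome 12, 4862440 to 4874359), was at 21, 24.9 and 10.6 CPM in ST-HSC and 78.8, 61.6, 96.7 and 71.5 CPM in LT-HSC. It was 4.1-fold lower in ST-HSC (log2 difference -2.03 ± 0.388 SE, adjusted p = 0.0371). Sphk1, a kinase that makes S1P, averaged 19.1 ± 2.03 CPM in ST-HSC and 10.2 ± 5.04 CPM in LT-HSC, with no overlap (adjusted p = 0.504). Of 12 S1P receptor and enzyme genes tested, 1 passed in each direction, beside 0.087% of all genes in each. The median log2 difference was 0.47, beside 0.023 over all genes. Degs1, which makes ceramide from dihydroceramide, upstream of sphingosine, was at 16.4, 14.9 and 7.33 CPM in ST-HSC against 91.8, 48.1, 64 and 20.8 CPM in LT-HSC. The groups were close at their edge, where LT-HSC replicate 4 lay just above ST-HSC replicate 1, and Degs1 was 4.36-fold lower in ST-HSC (adjusted p = 0.0375).

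Il1r1 encodes the signalling receptor for interleukin-1, a cytokine that drives stem cells towards myeloid output. The gene (ENSMUSG00000026072, GRCm38 chromosome 1, 40225080 to 40317257) was at 36.6, 31.2 and 42.8 CPM in ST-HSC and 10.3, 8.52, 7.09 and 8.97 CPM in LT-HSC. Both groups were tight, and the log2 difference was 2.08 ± 0.293 SE (adjusted p = 0.00562). MPP4 averaged 120.3 ± 10.2 CPM and MPP3 29.3 ± 16.7 CPM. Of 7 other receptors of the interleukin-1 and interleukin-18 family, 0 passed (adjusted p of 0.384 to 1). The decoy receptor gene Il1r2 was at 1.12, 0 and 0.651 CPM in ST-HSC and 26, 22.4, 9.01 and 0 CPM in LT-HSC, high in the same 3 LT-HSC libraries as the neutrophil genes. Irak3, an inhibitor of interleukin-1 signalling, averaged 26.6 ± 11.7 CPM in ST-HSC and 53.2 ± 8.06 CPM in LT-HSC without overlap (adjusted p = 0.222). Il1b, a ligand, was at 2.58, 0.926 and 0 CPM in ST-HSC and 79.3, 162, 47.9 and 1.01 CPM in LT-HSC. The part that the 3 LT-HSC libraries rich in neutrophil genes play in the values of Il1r2 and Il1b was not tested.

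Other receptor genes followed. Vldlr, the very low density lipoprotein receptor, which also binds reelin, was at 99.3, 102 and 64 CPM in ST-HSC and 10.2, 32.3, 14.2 and 32.3 CPM in LT-HSC, a 3.99-fold higher level in ST-HSC (log2 difference 2.00 ± 0.333 SE, adjusted p = 0.0143). The other 11 lipoprotein receptor genes tested gave 0 calls, with log2 differences of -2.04 to 0.54. Ramp1, a partner that turns the calcitonin receptor-like receptor into a receptor for CGRP, was at 36.5, 35.6 and 34.7 CPM in ST-HSC and 20.6, 12, 11.9 and 14.3 CPM in LT-HSC. The ST-HSC values were nearly equal, and Ramp1 was 2.42-fold higher (adjusted p = 0.0371). Abcc9, the sulphonylurea receptor subunit of ATP-sensitive potassium channels, was at 27.6, 29.3 and 63.2 CPM in ST-HSC and 11.6, 8.76, 11.3 and 8.54 CPM in LT-HSC (log2 difference 1.99 ± 0.348 SE, adjusted p = 0.0182). Il2rg, the common gamma chain of several interleukin receptors, averaged 106 ± 14.8 CPM in ST-HSC and 54.9 ± 9.63 CPM in LT-HSC and missed the threshold (adjusted p = 0.0562). Tgfbr3, the betaglycan co-receptor of TGF-beta, averaged 30.1 ± 8.96 CPM in ST-HSC and 89.4 ± 29 CPM in LT-HSC, also without overlap (adjusted p = 0.0661). Of the 22 other cytokine receptor genes and the 18 TGF-beta and BMP genes tested, 0 passed.

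Genes of megakaryocytes and platelets made up 5 of the 13 lower calls. Of 25 genes on the list, 22 were tested, 5 passed (Pf4, Cavin2, Vwf, Mfsd2b and Itga2b), and 10 did not overlap between groups. In all 18 of the 22 were lower in ST-HSC, with a median log2 difference of -1.40, beside 0.023 over all genes, and the same median with Clu, which had 0 counts in ST-HSC, at its bound. Only 0.087% of all genes tested were called lower, and 3.86% were lower without overlap between groups. In RNA from sorted cells, fewer cells of a type and less RNA in each cell cannot be told apart. The median was -1.70 to -1.23 when single libraries were left out, and -1.56 with LT-HSC replicates 1, 2 and 3 left out.

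The promoters of 3 of the 5 are printed below, since these genes were low together in the same 3 libraries. Each run is the 250 bases before the RefSeq start (GRCm38.p6), in the direction of transcription, and capitals mark the letters AGGAAG, an ETS-type motif, or its reverse complement. The GATA-type letters AGATAA were searched as well, on both strands and with no overlap with the other motif.
Pf4, chr5:90772185-90772434, plus strand: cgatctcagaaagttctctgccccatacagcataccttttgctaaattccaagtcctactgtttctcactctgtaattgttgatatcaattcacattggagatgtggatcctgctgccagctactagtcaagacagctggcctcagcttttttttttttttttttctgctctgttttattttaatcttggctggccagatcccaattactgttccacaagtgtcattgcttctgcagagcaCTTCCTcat
Cavin2, chr1:51288876-51289125, plus strand: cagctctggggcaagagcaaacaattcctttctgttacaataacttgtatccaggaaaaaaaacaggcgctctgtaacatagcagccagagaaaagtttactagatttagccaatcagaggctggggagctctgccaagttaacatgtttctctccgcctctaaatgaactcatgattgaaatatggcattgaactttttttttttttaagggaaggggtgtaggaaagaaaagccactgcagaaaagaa
Mfsd2b, chr12:4874360-4874609, minus strand: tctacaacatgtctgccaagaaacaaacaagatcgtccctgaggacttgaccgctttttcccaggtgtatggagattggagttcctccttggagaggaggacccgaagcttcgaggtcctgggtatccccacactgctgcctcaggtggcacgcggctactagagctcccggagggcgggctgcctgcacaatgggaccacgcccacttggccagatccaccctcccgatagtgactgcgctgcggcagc
Pf4 held 1 AGGAAG, on the reverse strand, and Cavin2 and Mfsd2b held 0. Of the 11 genes called lower that have an entry, 4 held AGGAAG and 0 held AGATAA, and of the 11 called higher 3 and 0 did. Among promoters of all genes tested, 29% held AGGAAG and 6.34% held AGATAA. These motifs were chosen after the values were seen, and a match describes letters only. Vwf had no entry.

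Pf4, the platelet chemokine (ENSMUSG00000029373, GRCm38 chromosome 5, 90772435 to 90773383), was at 1.57, 1.04 and 4.4 CPM in ST-HSC and 26.5, 53.2, 69.6 and 60.1 CPM in LT-HSC. The highest ST-HSC library lay far below the lowest LT-HSC library, and Pf4 was 22.4-fold lower (log2 difference -4.51 ± 0.685 SE, adjusted p = 0.00864). Cavin2, which coats caveolae (ENSMUSG00000045954, GRCm38 chromosome 1, 51289126 to 51302960), was at 0.673, 0.116 and 0.977 CPM in ST-HSC and 12.4, 24.1, 26.6 and 19.97 CPM in LT-HSC. It was near the floor in all 3 ST-HSC libraries and 35.3-fold lower (adjusted p = 0.00864). The other cavin and caveolin genes, 3 of 6 of them tested, gave 0 calls, with log2 differences of -0.45 to 1.12. Vwf, von Willebrand factor, which marks platelet-biased stem cells (ENSMUSG00000001930, GRCm38 chromosome 6, 125546774 to 125686679), was at 49.5, 47.3 and 41.5 CPM in ST-HSC and 124, 116, 148 and 155 CPM in LT-HSC. It kept a clear level in ST-HSC, 2.94-fold lower than in LT-HSC (log2 difference -1.56 ± 0.278 SE, adjusted p = 0.0217).

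Itga2b, the alpha chain of the platelet fibrinogen receptor, known as CD41 (ENSMUSG00000034664, GRCm38 chromosome 11, 102453297 to 102470122), was at 15.9, 22.1 and 19.7 CPM in ST-HSC and 49.8, 56.5, 76 and 52.7 CPM in LT-HSC (log2 difference -1.61 ± 0.327 SE, adjusted p = 0.0493). Its beta chain partner Itgb3 was at 14.5, 17 and 15 CPM in ST-HSC and 53.1, 50.7, 32.7 and 55.4 CPM in LT-HSC, also apart, and missed the threshold (adjusted p = 0.0577). Mmrn1, a factor V binding protein of platelet granules, was at 40.9, 71.5 and 36.8 CPM in ST-HSC and 109, 136, 147 and 157 CPM in LT-HSC (adjusted p = 0.0577). Clu, a secreted chaperone carried by platelets, had 0 counts in all 3 ST-HSC libraries and 4.15, 3.48, 3.72 and 3.47 CPM in LT-HSC, at least 9.49-fold lower by the floor of 3 counts per library (adjusted p = 0.0512). These 3 did not overlap between groups either. Vcl, vinculin, an adhesion protein that is abundant in platelets but was not on the list, was at 37.8, 31.6 and 24.9 CPM in ST-HSC and 96.4, 94.8, 78 and 51.7 CPM in LT-HSC (2.55-fold lower, adjusted p = 0.0468). The defining late platelet gene Ppbp was too low to test, as were Gp6 and Tubb1.

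Of 24 long-term HSC regulators tested, 10 were higher and 14 lower, and the median log2 difference was -0.41. Hlf, a factor of stem cells, averaged 973 ± 276 CPM in ST-HSC and 509 ± 139 CPM in LT-HSC, the higher level being in ST-HSC without overlap (adjusted p = 0.173). Gata2 averaged 107 ± 10.4 CPM in ST-HSC and 203 ± 69.7 CPM in LT-HSC (adjusted p = 0.194), and Fli1 99.1 ± 12.2 and 145 ± 31.4 CPM (adjusted p = 0.352). Hoxa9 averaged 48.9 ± 14.5 CPM in ST-HSC and 27 ± 13.6 CPM in LT-HSC (adjusted p = 0.391).

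Ikzf2, which encodes Helios of the Ikaros family (ENSMUSG00000025997, GRCm38 chromosome 1, 69531214 to 69687245), was at 155, 236 and 200.3 CPM in ST-HSC and 76.7, 83.1, 79.5 and 114 CPM in LT-HSC. It was 2.23-fold higher in ST-HSC (log2 difference 1.16 ± 0.201 SE, adjusted p = 0.0182) and averaged 134 ± 21.1 CPM in MPP3 and 129 ± 13.1 CPM in MPP4. The other 4 Ikaros genes gave 0 calls (log2 -1.34 to 0.46), and Ikzf1 averaged 357 ± 70.4 CPM in ST-HSC and 319 ± 49.3 CPM in LT-HSC. Of 24 genes of lymphoid priming tested, Flt3, also on the sort list, was the 1 that passed, beside 0.087% of all genes called higher. In all 19 were higher and 5 lower, beside 51.9% higher over all genes. The median log2 difference was 0.51, beside 0.023 over all genes, and ran from 0.11 to 0.67 when single libraries were left out. Of the 24, 5 were higher without overlap between groups, beside 3.73% of all genes. Sox4, a factor of early B-cell development, was at 107, 149 and 143 CPM in ST-HSC and 45.6, 61, 61.5 and 81.6 CPM in LT-HSC (adjusted p = 0.0562). The non-coding gene Gm26735, which overlaps Sox4 on chromosome 13, was at 79.9, 92.5 and 89.9 CPM in ST-HSC and 24.5, 45, 34.6 and 53.1 CPM in LT-HSC (adjusted p = 0.0538), and reads in the shared stretch cannot be told apart where counting was without strand. Runx2 averaged 391 ± 112 CPM in ST-HSC and 204 ± 31.2 CPM in LT-HSC (adjusted p = 0.104), and the orphan receptor gene Gpr171 84.7 ± 3.98 and 54.5 ± 11.9 CPM (adjusted p = 0.238). Gimap6, a GTPase of lymphocyte survival, was at 100.4, 153 and 171 CPM in ST-HSC and 41.6, 53.5, 47 and 79.5 CPM in LT-HSC (2.56-fold higher, adjusted p = 0.0375).

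Genes of G2 and mitosis were lower in ST-HSC in 26 of 26 members, with a median log2 difference of -1.03 beside 0.023 over all genes. Of these, 1 passed, beside 0.087% of all genes called lower, and 15 did not overlap between groups, beside 3.86% of all genes in that direction. Mki67, the Ki-67 antigen of cycling cells (ENSMUSG00000031004, GRCm38 chromosome 7, 135689784 to 135716361), was the gene that passed, at 734, 669.8 and 425 CPM in ST-HSC and 3113, 1426, 1452 and 984 CPM in LT-HSC. LT-HSC replicate 1 was the highest by far, and the difference was 2.86-fold (log2 difference -1.52 ± 0.306 SE, adjusted p = 0.0493). Bub1b, a spindle checkpoint kinase, was at 28.7, 26.7 and 8.63 CPM in ST-HSC and 72, 61.7, 67.4 and 54.3 CPM in LT-HSC (adjusted p = 0.0577). Kif11, the mitotic kinesin Eg5, averaged 113 ± 38.9 CPM in ST-HSC and 241 ± 44.9 CPM in LT-HSC (adjusted p = 0.0613), and the ubiquitin-conjugating enzyme gene Ube2c 38.7 ± 23.9 and 110.1 ± 30.5 CPM (adjusted p = 0.105). The list summed to 2179, 1958 and 1192 CPM in ST-HSC and 6248, 3595, 3414 and 2917 CPM in LT-HSC.

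The mitotic sum was highest in LT-HSC replicate 1 and, among the LT-HSC libraries, lowest in replicate 4, which also had the lowest neutrophil and erythroblast sums of the 4. The part of those cells in the mitotic difference was not tested. Away from the list, Aspm, a spindle pole protein, was at 70.2, 89.2 and 55.2 CPM in ST-HSC and 173, 144, 123 and 162 CPM in LT-HSC (2.1-fold lower, adjusted p = 0.0375). Iqgap3, a scaffold of proliferating cells, was at 14.4, 7.98 and 3.91 CPM in ST-HSC and 32.5, 44.8, 54.4 and 34 CPM in LT-HSC (4.73-fold lower, adjusted p = 0.0143), and the other 2 IQGAP genes had log2 differences of -0.32 and 0.06. Gen1, a resolvase of Holliday junctions, was at 7.29, 5.55 and 5.7 CPM in ST-HSC and 32, 22.3, 16.8 and 18.2 CPM in LT-HSC (3.62-fold lower, adjusted p = 0.0468). Mki67, Aspm, Iqgap3 and Gen1 averaged 1410, 171, 44.5 and 21.8 CPM in MPP3 and 1182, 133, 31.9 and 16.4 CPM in MPP4, so that both progenitor means lay above the ST-HSC mean for all 4. The LT-HSC means were 1744, 150.5, 41.4 and 22.4 CPM. They lay above both progenitor means for Mki67 and Gen1, and between them for Aspm and Iqgap3. The SD of Mki67 in LT-HSC was 938 CPM.

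The replication genes of S phase gave 0 calls in 30 tested, with 25 lower and a median log2 difference of -0.35. Over all genes tested, 51.9% were higher. Of the 30, 5 were lower without overlap between groups, beside 3.86% of all genes tested. Tyms, thymidylate synthase, averaged 91 ± 13.7 CPM in ST-HSC and 140.4 ± 26 CPM in LT-HSC (adjusted p = 0.213). Rrm2, a ribonucleotide reductase subunit, was at 51.5, 26.5 and 16.8 CPM in ST-HSC and 207, 73.6, 74.7 and 37.9 CPM in LT-HSC, with LT-HSC replicate 1 far above the rest. Of 18 cyclin D, CDK and quiescence genes tested, 7 were higher and 11 lower, 0 passed, and the median was -0.08. Metabolic lists lay close to all genes. The median was -0.03 for 18 glycolysis genes, -0.14 for 28 nuclear genes of oxidative phosphorylation, -0.02 for 26 genes of ribosome biogenesis and Myc, and -0.15 for 20 genes of protein folding in the ER, with 0 calls in each. Pdk1, a mitochondrial kinase that restrains pyruvate dehydrogenase, averaged 71.9 ± 15.8 CPM in ST-HSC and 38.7 ± 8.02 CPM in LT-HSC without overlap (adjusted p = 0.121). Ldha, lactate dehydrogenase A, averaged 153 ± 31.7 CPM in ST-HSC and 227 ± 38.8 CPM in LT-HSC (adjusted p = 0.353).

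**Figure D3:**
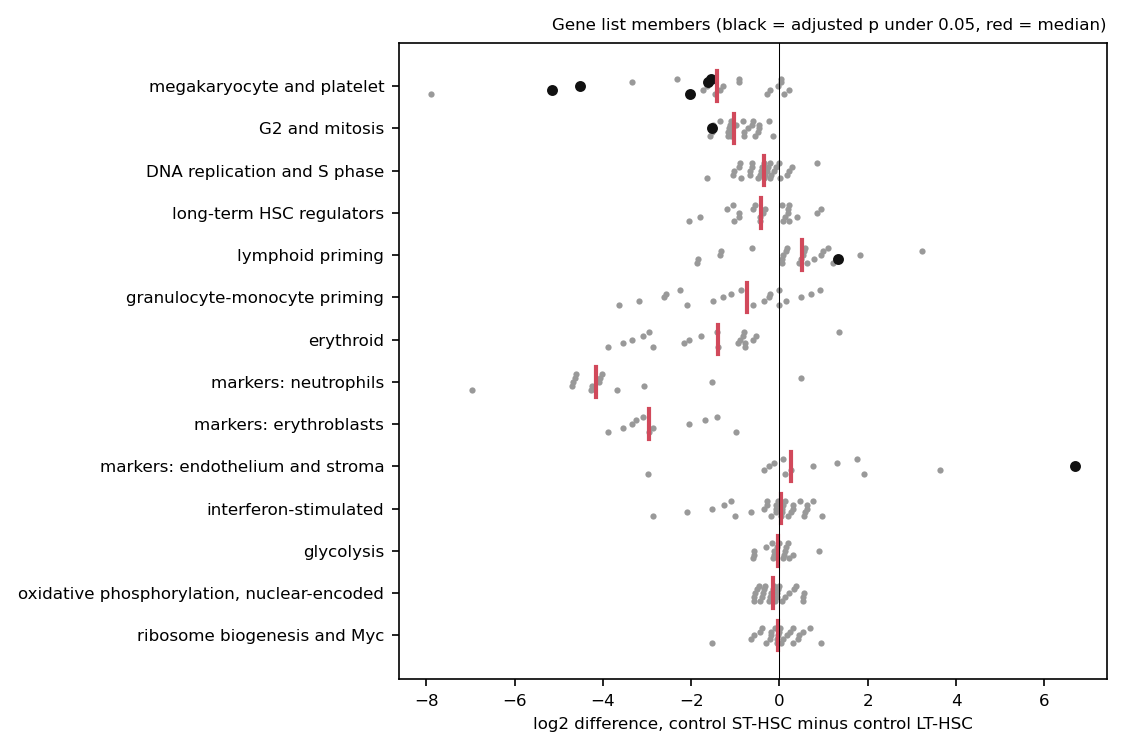
Log2 differences, control ST-HSC minus control LT-HSC, of the tested members of 14 gene lists, with 1 point for each gene (1 called gene is not drawn), black where the adjusted p was under 0.05, and a red bar at the list's median. The megakaryocyte and mitosis lists lie mostly left of 0 with 5 and 1 black points, the neutrophil and erythroblast markers lie furthest left with 0, and the metabolic lists centre near 0.

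Sfxn5, a mitochondrial carrier of the sideroflexin family (ENSMUSG00000033720, GRCm38 chromosome 6, 85213049 to 85333422), had 0 counts in all 3 ST-HSC libraries and 10.6, 9, 5.53 and 4.2 CPM in LT-HSC. Taking 3 counts per library as the floor, it was at least 18.8-fold lower in ST-HSC (adjusted p = 0.0143). The other 4 sideroflexin genes gave 0 calls, with log2 differences of 0.05 to 0.48. Scube3, a secreted protein that can activate TGF-beta signalling, was at 11.8, 29.6 and 57.3 CPM in ST-HSC and 7.44, 4.32, 2.4 and 4.2 CPM in LT-HSC. ST-HSC replicate 3 held the most, and Scube3 was 7.17-fold higher in ST-HSC (log2 difference 2.84 ± 0.555 SE, adjusted p = 0.0375).

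Cdh5, Hspg2 and Dab2 had the largest log2 differences among the 13 higher genes. Cdh5, the endothelial cadherin (ENSMUSG00000031871, GRCm38 chromosome 8, 104101625 to 104144511), was at 11.1, 10.9 and 46.1 CPM in ST-HSC, against 0.858, 0, 0 and 0 CPM in LT-HSC. Hspg2, the basement membrane proteoglycan perlecan, was at 15.1, 2.2 and 29 CPM in ST-HSC and 0.143, 0.6, 0 and 0.434 CPM in LT-HSC. Dab2, an endocytic adaptor, was at 3.81, 3.7 and 34.4 CPM in ST-HSC and 0.143, 0.48, 0.601 and 0 CPM in LT-HSC. ST-HSC replicate 3 was the highest for all 3, several-fold above ST-HSC replicate 2, and the LT-HSC libraries were near or at 0. The log2 differences were 6.69 ± 1.26 (SE) for Cdh5, 5.64 ± 1.06 (SE) for Hspg2 and 5.39 ± 1.01 (SE) for Dab2 (adjusted p = 0.0375, 0.0355 and 0.0355).

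Markers of endothelium and stroma were set beside them. Of 15, 13 were tested, and 9 were higher and 4 lower in ST-HSC. Cdh5 was the 1 that passed, beside 0.087% of all genes called higher. The median log2 difference was 0.27, or 0.02 to 1.01 when single libraries were left out. Of the 13, 4 were higher without overlap between groups, beside 3.73% of all genes tested. In the mutant 9 of 11 were higher, with a median of 1.07. They summed to 271, 317 and 618 CPM in ST-HSC and 565, 186, 228 and 128 CPM in LT-HSC, so the sums overlapped. Pecam1, an adhesion molecule of endothelium that stem cells also carry, was at 124, 141 and 364 CPM in ST-HSC and 386, 87.4, 135 and 89.4 CPM in LT-HSC. Col3a1 and Kitl were too low to test. The part of endothelial RNA in the 3 calls was not tested.

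Genes of maturing blood cells had large median differences and 0 calls. The 14 tested neutrophil genes had a median log2 difference of -4.16 (-4.07 with a gene at 0 counts in ST-HSC at its bound) and the 11 erythroblast genes -2.94. The erythroid list of 20 had a median of -1.40 and the granulocyte-monocyte list of 20 had -0.73. The values of S100a9, a calcium-binding protein of neutrophils, were 71.9, 9.72 and 78.8 CPM in ST-HSC and 3929, 1092, 447 and 3.91 CPM in LT-HSC. For Slc4a1, the red-cell anion exchanger, they were 97.9, 12.6 and 28.8 CPM in ST-HSC and 1626, 550.5, 548 and 27.9 CPM in LT-HSC. LT-HSC replicates 1, 2 and 3 were high and replicate 4 lay in or under the ST-HSC range, so the groups overlapped (adjusted p = 0.352 and 0.268). Leaving out those 3 libraries, which were picked by a neutrophil gene, leaves 1 LT-HSC library and fixes the direction of the neutrophil markers, so these values are a description. The medians were then 1.39 for the erythroid list, 1.94 for the granulocyte-monocyte list, 1.90 for the endothelial and stromal markers (13 of 13 higher), -1.56 for the megakaryocyte list (18 of 22 lower), -0.80 for the mitosis list (23 of 26 lower) and -0.17 for the S-phase list (16 of 30 lower).

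Igkc, the kappa light chain of B and antibody-secreting cells, was high in a different library, with 1441, 2.31 and 63.9 CPM in ST-HSC and 104, 21.4, 211 and 1.59 CPM in LT-HSC. The B-cell marker list summed to 3366, 31.5 and 94.6 CPM in ST-HSC and 921, 259.6, 1372 and 30.8 CPM in LT-HSC. Of 18 genes of the TNF and NF-kB response tested, 8 were higher and 10 lower, 0 passed and the median log2 difference was -0.02. Tnf was at 4.71, 1.85 and 1.79 CPM in ST-HSC and 29.6, 13.6, 10.6 and 6.08 CPM in LT-HSC without overlap (adjusted p = 0.0898), and the chemokine gene Cxcl2 was at 7.96, 4.98 and 1.79 CPM in ST-HSC and 68.7, 63.6, 17.9 and 3.62 CPM in LT-HSC. Of 31 interferon-stimulated genes tested, 16 were higher and 15 lower, 0 passed and the median was 0.03.

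**Figure D4:**
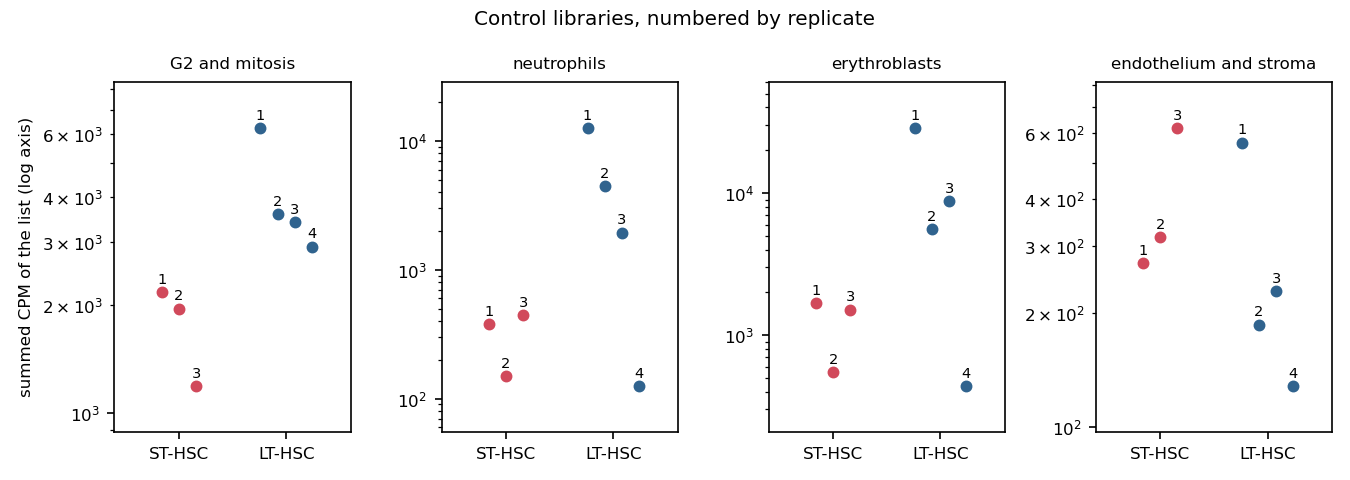
Summed CPM of 4 gene lists in each control library, numbered by replicate, on log axes that differ between panels (ST-HSC red, on the left, LT-HSC blue). The mitotic sums do not overlap between populations, the neutrophil and erythroblast sums are high in LT-HSC replicates 1, 2 and 3 and low in replicate 4, and the endothelial sums are highest in ST-HSC replicate 3 and LT-HSC replicate 1.

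The 10 genes next in rank in each direction had adjusted p values of 0.0533 to 0.0825 (higher) and 0.0512 to 0.0613 (lower) and did not pass. Besides Sox4, Gm26735 and Il2rg, the higher ones were Dusp5, Znrf1, Mc5r, Tmem173, Srl, Clcf1 and Ablim1. Dusp5, a phosphatase that switches off ERK, was at 18.8, 16.3 and 42.7 CPM in ST-HSC and 10.2, 8.16, 4.08 and 6.22 CPM in LT-HSC. Tmem173, the DNA-sensing adaptor STING, was at 35.9, 45.1 and 63.4 CPM in ST-HSC and 17.7, 17.9, 23.4 and 18.4 CPM in LT-HSC. The groups were apart for all 10. Besides Slamf1, Clu, Itgb3, Mmrn1 and Bub1b, the lower ones were Hist1h2bk, Parpbp, Cit, Epb41 and Slfn4. Slfn4, a Schlafen gene of myeloid cells, was at 2.69, 0.926 and 2.44 CPM in ST-HSC and 47.2, 48.7, 40.5 and 1.45 CPM in LT-HSC and was the 1 of the 20 whose groups overlapped.

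The progenitor means were read for the 26 genes. They share the LT-HSC libraries as the point they are set against, so they describe levels and are no test. Of the 13 genes higher in ST-HSC, 12 had a MPP3 mean and 9 a MPP4 mean above the LT-HSC mean. The MPP4 mean was also above the ST-HSC mean for 4, and the MPP3 mean for 3. Vldlr averaged 88.6 ± 21.4 CPM in ST-HSC, 34.6 ± 6.15 CPM in MPP3 and 83.2 ± 14 CPM in MPP4, and Abcc9 40.02 ± 20.1, 16.1 ± 2.58 and 8.46 ± 1.79 CPM, so that for both ST-HSC had the highest of the 4 population means, though Vldlr in ST-HSC and MPP4 did not differ beyond the spread. Ikzf2, Gimap6, Scube3, Dab2, Hspg2 and Cdh5 also had their highest population mean in ST-HSC. Of the 13 genes lower in ST-HSC, 11 had a MPP3 mean and 13 a MPP4 mean under the LT-HSC mean. Pf4 averaged 1.07 ± 0.581 CPM in MPP3 and 0.271 ± 0.337 CPM in MPP4, near the floor.

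The same populations from Dnmt3a-mutant mice gave libraries that the control comparison did not use. There 27 genes were higher (0.183% of 14766) and 17 lower (0.115%) in ST-HSC, and 1173 had an unadjusted p under 0.05 (7.94%). Of the 26 genes called in controls, 24 had the same sign in the mutant and 9 were called, which is 34.6% of the control calls and 20.5% of the 44 mutant calls. Among them were Il1r1, Flt3, Cd34, Abcc9 and Cdh5, higher in ST-HSC, and Pf4, Cavin2 and Vwf, lower. Flt3 and Cd34, and Itga2b among the 24, are on the sort list, so their shared sign may be a check of the label only. The share of all genes with the same sign in both genotypes was not computed. Pf4 was at 0.689, 0.731, 0.615 and 0.237 CPM in mutant ST-HSC and 58.2, 44.4 and 46.2 CPM in mutant LT-HSC (log2 difference -6.44 ± 0.813 SE, adjusted p = 0.00085). Il1r1 was at 40.1, 30.7, 15.2 and 43.7 CPM in mutant ST-HSC and 10.6, 8.31 and 7.12 CPM in mutant LT-HSC (log2 difference 1.90 ± 0.387 SE, adjusted p = 0.0337). For neither gene did the mutant populations overlap.

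The remaining genes included some whose mutant values differed from this pattern. S1pr3 was at 1.93, 7.31, 4.92 and 2.01 CPM in mutant ST-HSC and 0.98, 2.19 and 0 CPM in mutant LT-HSC, where the groups overlapped (log2 difference 1.91 ± 0.816 SE, adjusted p = 0.552). Sfxn5 was at 4, 0, 3.54 and 1.06 CPM in mutant ST-HSC and 1.57, 0.923 and 1.7 CPM in mutant LT-HSC, and Gimap6 at 62.7, 76.7, 71.8 and 89.7 CPM in mutant ST-HSC and 59.8, 62.3 and 114 CPM in mutant LT-HSC. These 2 are the genes of the 26 whose sign differed. Slamf1 was at 1.79, 394, 0.769 and 1.06 CPM in mutant ST-HSC and 30.4, 35 and 53.5 CPM in mutant LT-HSC, so that mutant ST-HSC replicate 2 lay far above every other library of either population.

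Whether the population difference differed by genotype was tested in 1 fit of all 29 libraries. Of 15915 genes, 0 passed in edgeR with the settings of the main fit and 977 had an unadjusted p under 0.05 (6.14%). Among the 26, 9 had an unadjusted p under 0.05, with the smallest adjusted p at 0.16 for Sfxn5 (unadjusted p = 4.7e-05) and 0.345 for Gimap6 (unadjusted p = 0.000788). For S1pr3 the difference of mutant minus control was -1.92 ± 0.936 (SE) on the log2 scale (adjusted p = 0.808). The megakaryocyte list had a median log2 difference of -1.55 in the mutant over 21 genes, with 3 called lower, and -1.40 in controls. The mitosis list had -0.92 in the mutant, lower in 26 of 26 with 2 called, and -1.03 in controls. The erythroid list had 1.73 in the mutant, with 17 of 20 higher and 2 called, and -1.40 in controls. S100a9 was at 29.98, 133 and 15.1 CPM in the mutant LT-HSC libraries, under each of the 3 high control LT-HSC libraries.

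**Figure D5:**
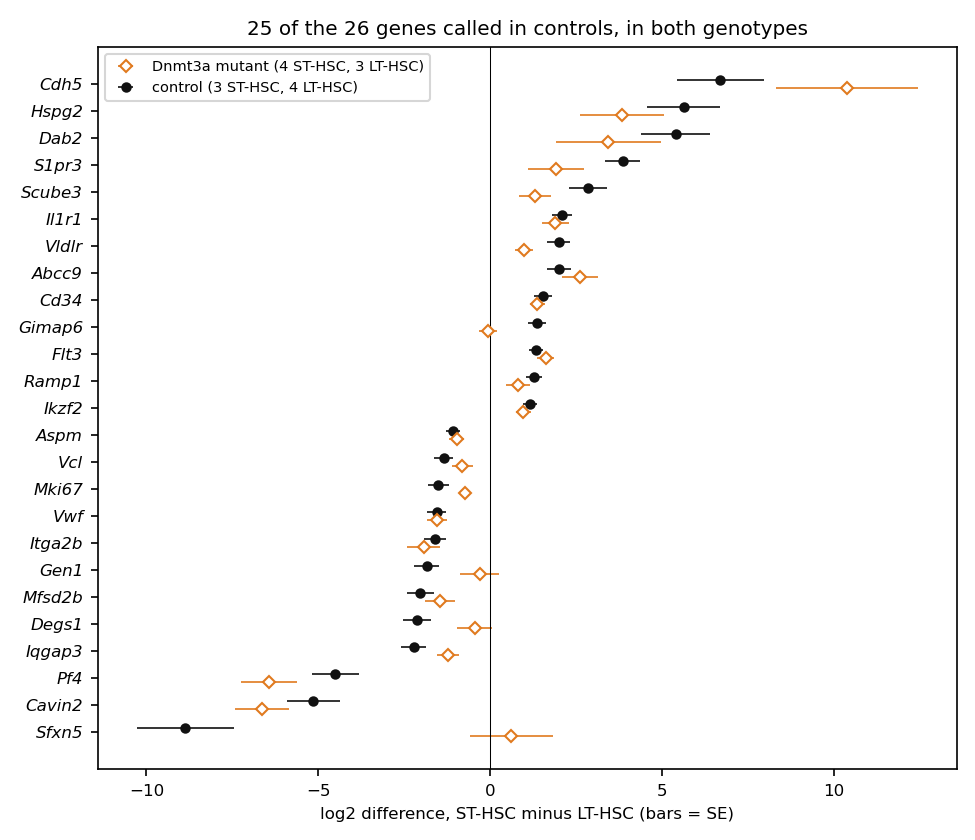
Log2 differences, ST-HSC minus LT-HSC, for 25 of the 26 genes called in controls, in Dnmt3a-mutant libraries (open diamonds, 4 ST-HSC and 3 LT-HSC) and control libraries (filled circles, 3 and 4), with bars for the standard error. Both points lie on the same side of 0 for every gene drawn except Sfxn5 and Gimap6. The control points were used to choose the genes and the mutant points were not.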

How the data were processed

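Poly(A) RNA of sorted LT-HSC, ST-HSC, MPP3 and MPP4 was sequenced in 29 libraries, after isolation with the RNeasy Micro kit, per the labels' protocols. The authors deposited RSEM expected counts, already whole, for 38924 Ensembl identifiers, so rounding changed 0 columns. The authors' tools were RSEM 1.2.12, Bowtie2 2.2.0, SAMtools 0.1.18 and edgeR 3.5.3 on GRCm38, per the submitters' processing notes, with settings and order not given in the sources used here. Because RSEM divides ambiguous reads, values of near-identical copies such as globins are uncertain. GENCODE (GRCm38) supplied symbols and coordinates for 37607 identifiers, and 1317 had no match.

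From the counts, edgeR 4.0.16 (R 4.3.3) was fitted on the 14 control libraries with 4 group means, TMM scaling, filterByExpr (10 counts, total 15) and the robust quasi-likelihood test in its earlier form, which is not the default of this version. Those 2 settings were chosen after all 4 of their combinations had been run on this comparison, because they return the number of calls of an earlier analysis of these data; the closing section gives the other counts. Benjamini-Hochberg adjustment ran over all genes tested, with 0.05 as threshold. The 15 mutant libraries were fitted alike, and all 29 for the difference between genotypes. CPM used total counts times the TMM factor, and a fold against 0 counts used a floor of 3 counts per library. On simulated counts, the condition set was that the median fitted log2 difference lies near the planted one, with none set on false calls. Alternatives covered scaling, filter, samples, replicate blocks, left-out libraries, DESeq2 1.42.0 and limma 3.58.1 voom. Named genes were all calls, the next 10 in each direction, the sort and small-family lists, and the leading members of the other lists. Some genes that this rule names, 1 of the 26 calls among them, are not reported here. Members, lists and rule were chosen with earlier results of these data known. The motifs searched in RefSeq promoters were chosen after the values were seen.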

Additional observations from a re-analysis of the deposited data

Results flagged for a closer look

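In groups of 4 libraries, a library was singled out when its gap to the nearest other, divided by the group's whole range, was above Dixon's critical value for 4 samples. Chance does this in about 1 group in 20, and 114 groups were checked, of which 4 had such a library. Pecam1 was at 386 CPM in control LT-HSC replicate 1, against 87.4 to 135 in the others. Cdh5 was at 0.858 CPM there, against 0 in the others, a level of a few counts. Tmem173 was at 23.4 CPM in control LT-HSC replicate 3, against 17.7 to 18.4 in the others. Slamf1 was at 394 CPM in mutant ST-HSC replicate 2, against 0.769 to 1.79 in the other 3 mutant ST-HSC libraries. No cause was tested for these values.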

How the results depend on the processing

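The 25 called genes reported above kept their direction under all 22 alternatives, which their lack of overlap largely fixed in advance. The number of calls did not hold. Against 13 higher and 13 lower, counts of higher and lower calls were 0 and 4 with only the 7 ST-HSC and LT-HSC libraries, 16 and 28 with all 29 libraries, 22 and 30 with no filter, 89 and 219 with DESeq2, and 12 and 8 without TMM. Added after seeing the data, they were 8 and 7 without robust moderation, 45 and 86 with the bias-adjusted quasi-likelihood, and 48 and 107 with both changes, which are the tool's defaults. They were 32 and 43 with the column prefix as covariate, and 9 and 135 within the prefix that holds 2 libraries of each population. Also added was a fit with LT-HSC replicates 1, 2 and 3 left out (those above 100 CPM of S100a8). It leaves 1 LT-HSC library, so its calls are not counted here. Leaving out 1 library gave 1 to 40 higher and 0 to 177 lower calls in controls, and 3 to 37 and 6 to 20 in mutants. The cause of these changes was not tested. Of the 26, DESeq2, no filter and the bias-adjusted fit kept all 26, voom 18 and the 7-library fit 3. Of the 54 described genes that did not pass in the main fit, 32 passed with DESeq2 and 26 with the tool's defaults. The test between genotypes stayed at 0 with DESeq2 size factors and with only the ST-HSC and LT-HSC libraries of both genotypes. It was not run with the tool's defaults or with the DESeq2 test, so its dependence on those settings is not known.

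Deviations of same-numbered libraries had correlations over 14937 genes of 0.109, -0.001 and 0.053 for the 3 numbers shared by description. With 3 shared numbers and so few libraries behind each mean, these values cannot decide whether same-numbered libraries are pairs. The main fit did not use the numbers as pairs, and what a number stands for was not given. ST-HSC replicates 1, 2 and 3 each correlated best with an LT-HSC library of another number (0.125, 0.122 and 0.056). With a replicate block by description number there were 15 higher and 21 lower calls, and by title number 21 and 74. In mutants the replicate block gave 27 and 21.

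Signs turned only for genes that did not pass. Without those 3 libraries the log2 difference was 3.76 for S100a9, 0.73 for Slc4a1, 0.22 for Il1b, 0.44 for Cxcl2, 0.47 for Slfn4, 1.88 for Fcgr3, 5.27 for Il1r2 and 3.44 for Cd48. Cd48 was at 0.52 with voom, 0.094 without TMM and 0.13 with the description block, and Il7r at -1.56 with voom, -0.36 with the description block and -0.60 with the title block. Tek was at 0.0888 with the title block and 0.14 within that prefix, where Pecam1 was at -0.84. Leaving out single libraries gave -0.42 to 0.49 for Cd48, -0.69 to 0.11 for Tek, -0.17 to 0.57 for Ly6a, -1.38 to 3.54 for Igkc, -6.72 to 1.69 for Il7r and -0.39 to 1.01 for Pecam1. Depth limits genes near the floor, such as Cavin2 and Sfxn5 in ST-HSC.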

Other observations

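Among the called genes described above, 7 (28%), Il1r1, Cavin2, Ikzf2, Ramp1, Aspm, Degs1 and Cd34, lie on chromosome 1, which holds 861 of the 14937 genes tested (5.76%). They lie between 40225080 and 194961279 in GRCm38, and 4 were higher and 3 lower in ST-HSC. This was noticed after the calls were made and was not tested.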
